A study of Mus musculus with 12 samples.

Results

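The genes described here are 38 interferon-stimulated effector genes, the antiviral and signalling genes that cells switch on after interferon, measured in mouse blood neutrophils. They were chosen by name, and the rule uses no measured value. The deposited expression table of 11494 genes lists 33 of the 38. Gbp5, Ifi44, Mx1, Mx2 and Phf11d were found in it neither by symbol nor by gene identifier and were not analysed here. The study compared 6 libraries of a bone marrow transplant (BMT) group with genotype LOY, for loss of the Y chromosome, with 6 libraries of a Control BMT group. Each library came from 10000 sorted blood cells that were positive for Ly6G, negative for CD115 and positive for the red fluorescent protein RFP, a gate for neutrophils that carry the fluorescent marker. All 12 libraries carry the same treatment label, Control. How the Y chromosome was lost, and the strain and age of the mice, are not given in the sources used here, and neither is whether the libraries of a group are separate mice, so a p-value here speaks of the spread among libraries, which may be technical.

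Type I and type III interferons bind receptors that signal through the kinases JAK1 and TYK2, and activated transcription factors then bind the interferon-stimulated response element (ISRE) in gene promoters. Interferon gamma acts mainly through another promoter element, the gamma-activated site (GAS). The effector genes sense or bind foreign RNA, block viral entry and release, alter nucleotide pools, or attach the small protein ISG15 to other proteins. Circulating neutrophils carry a basal level of many of these genes, and neutrophils with high levels of them are a known state in infection and autoimmunity.

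The libraries held 17097739 to 19616066 reads in LOY and 13743581 to 18459792 reads in Control, and a value below is the authors' normalized read number per gene. A value of 0 allows up to 3 reads by counting error alone, or 3.23 normalized reads in Control 1, 3.84 in Control 2 and 2.78 in LOY 10. Genes at 0 made up 6.59 to 11.6% of the table in LOY libraries, against 20.5% in Control 1, 21.7% in Control 2, 17.3% in Control 12 and 9.33 to 11.1% in the other Control libraries. Reads of 4 Y-linked genes, summed per 1000000 normalized reads, gave 86.3 in LOY 4 and 0.162 to 6.73 in the other LOY libraries, against 155 to 254 in Control libraries. The 11 neutrophil markers, all of them listed, made up 8.60 to 11.6% of normalized reads in LOY libraries and 8.33 to 13.4% in Control libraries.

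The promoters carry the sequence by which this gene set is known, and a few are shown here to make that concrete. RefSeq promoter windows (GRCm38.p6, 250 bases before to 50 after a start site) were matched for 29 of the 38 genes, with 35 windows in all. The ISRE letters GAAANNGAAA, searched on both strands, stood in 17 of the 29 (58.6%), against 3.99% of 27025 genes with a window. The GAS letters TTCNNNGAA, also on both strands, stood in 6 of the 29 (20.7%), against 9.55% of those genes, and 4 of the 29 held both. Of the 29 ISRE matches, 24 lay upstream of the start site and 17 within 120 bases upstream of it. A group of 9 genes had 2 or more matches in 1 window, with overlapping matches counted separately, and Ifit1bl1 and Trim30a had 1 match in each of 2 windows. The stretches below are written 5′ to 3′ on the strand of the gene, with the matched ISRE letters in capitals.
Isg15 (chr4:156200857-156200914, minus strand): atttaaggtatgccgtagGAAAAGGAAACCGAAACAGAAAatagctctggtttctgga
Ifit1 (chr19:34640767-34640831, plus strand): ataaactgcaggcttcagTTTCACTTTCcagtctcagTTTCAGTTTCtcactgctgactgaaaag
Ifit3 (chr19:34583355-34583434, plus strand): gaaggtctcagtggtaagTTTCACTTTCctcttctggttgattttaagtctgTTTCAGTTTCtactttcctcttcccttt
Ifit3b (chr19:34607751-34607830, plus strand): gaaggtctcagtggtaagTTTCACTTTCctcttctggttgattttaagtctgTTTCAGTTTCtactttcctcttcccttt
Oas1a (chr5:120907526-120907563, minus strand): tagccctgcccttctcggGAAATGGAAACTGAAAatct
Oas1g (chr5:120887614-120887649, minus strand): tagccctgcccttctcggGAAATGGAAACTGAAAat
Oas3 (chr5:120777707-120777752, minus strand): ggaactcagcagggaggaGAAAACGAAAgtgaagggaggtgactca
Rsad2 (chr12:26456545-26456590, minus strand): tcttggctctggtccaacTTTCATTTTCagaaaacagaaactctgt
Gbp2 (chr3:142620586-142620631, plus strand): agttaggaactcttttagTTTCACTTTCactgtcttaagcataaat
Gbp3 (chr3:142559981-142560032, plus strand): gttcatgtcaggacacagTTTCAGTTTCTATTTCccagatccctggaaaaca

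Isg15 and Ifit1 show the repeated form of the element, with 3 overlapping matches in Isg15 and 2 separate ones in Ifit1. The Ifit3 and Ifit3b stretches were identical over all 80 bases, and those of Oas1a and Oas1g over 36 bases. Oas3, Rsad2 and Gbp2 each held 1 match, and Gbp3 held 2 that overlap. A match is a description of these letters and does not show that a factor binds there. The 16 listed genes with an ISRE match had a median log2 fold change of 0.18 between LOY and Control, with 10 estimates above 0. The 10 listed genes with a window and no match had a median of 0.33, with 7 above 0.

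**Figure D1:**
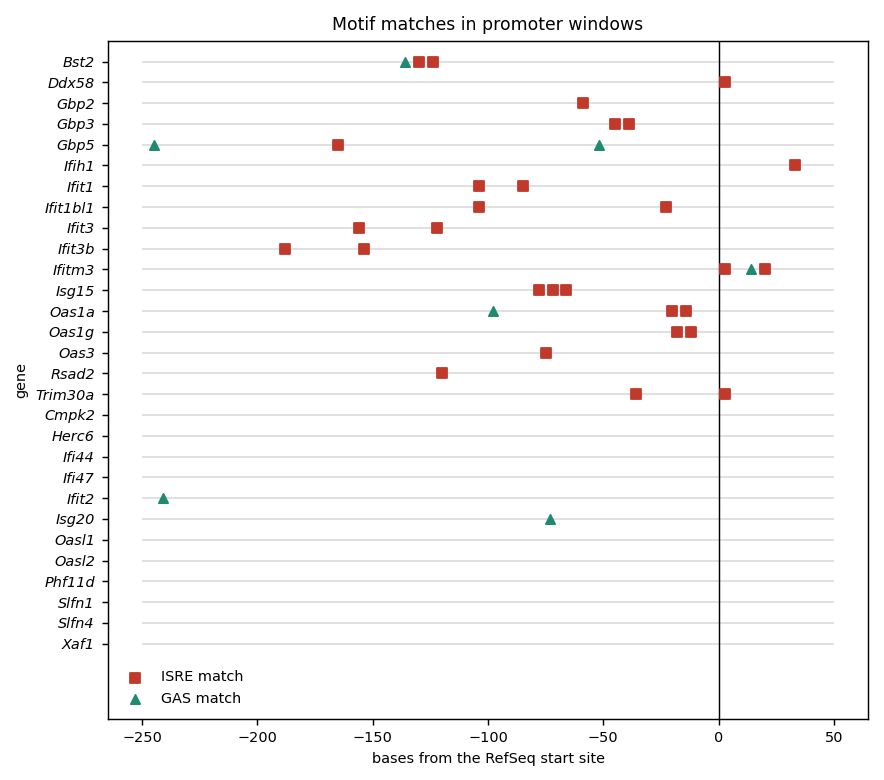
Positions of ISRE and GAS matches in the promoter windows of the matched interferon-stimulated genes; the horizontal axis is the distance from the start site in bases and each row is a gene. Of the 29 ISRE matches, 24 lie upstream of the start site and 17 within the 120 bases upstream of it.

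Summed over the set, the effector genes took up shares of the RNA that differed between groups by less than the spread between libraries. They made up 0.547 ± 0.0687% of normalized reads in LOY libraries and 0.544 ± 0.0621% in Control libraries (SD, n = 6 each), and the ranges were 0.446 to 0.642% in LOY and 0.477 to 0.619% in Control. In bulk RNA, fewer cells with a gene on and less of its RNA per cell cannot be told apart. Slfn1 and Slfn4 alone supplied 44.6 ± 2.85% of that sum in LOY libraries and 42.3 ± 3.20% in Control libraries. Without these 2 genes the share was 0.304 ± 0.0523% in LOY and 0.315 ± 0.0493% in Control.

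No effector gene passed the test between LOY and Control. All 33 listed genes were among the 9742 tested by limma, and 0 of 33 reached an adjusted p under 0.05, where 0.0205% of all tested genes did. At an unadjusted p under 0.05 the count was also 0 of 33, where 6.04% of all tested genes passed. The smallest unadjusted p was 0.103, for Oasl1, and adjusted p-values ran from 0.818 to 0.988. EdgeR and DESeq2 on the recovered reads each called 0 of 33, at the adjusted and at the unadjusted threshold. Among the same 9742 genes, edgeR called 0% adjusted and 2.95% unadjusted. DESeq2 was run on all listed genes and called 0.493% of 10963 adjusted and 5.55% of 11148 unadjusted. Among the 9742, 385 had an unadjusted DESeq2 p under 0.05. Without LOY 4, the LOY library with the most Y-linked reads, 0 of 33 passed at either threshold, with 20 estimates above 0 and a median of 0.16. The LOY and Control libraries overlapped for every one of the 33 genes, where 0.287% of tested genes had groups that did not overlap.

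The direction of the estimates differed between genes of high and low level in this fit. Over the 33 genes, 20 log2 fold changes (LOY minus Control) lay above 0 and 13 below, where 60.9% of all tested genes lay above 0. The median was 0.25, beside 0.14 over all tested genes. The 21 genes whose mean reached 500 normalized reads had 8 estimates above 0 and 13 below, with a median of -0.13 and a range of -0.45 to 0.42, beside a median of 0.0015 over the 3582 tested genes of that level. The 12 genes with a mean under 500 had estimates above 0 throughout, with a median of 1.09, beside a median of 0.38 and 67.1% above 0 over the 6160 tested genes of that level. Control 1 or Control 2, the libraries with the most genes at 0, gave the lowest Control value for 11 of these 12 genes. They also did so for 14 of the 21 higher genes. Over all tested genes Control 1 was the lowest Control library for 21.4% and Control 2 for 23.4%. Without Control 1, 2 and 12 the 12 genes had 6 estimates above 0 and 6 below, with a median of 0.08. That fit put 2984 of the 6160 tested genes of that level above 0. These libraries had the most genes at 0, so leaving them out can by itself lower the estimates of low genes. Of the 12, the estimate of Ifit1bl1 rose from 0.78 to 1.76, and those of the other genes fell. With edgeR on all libraries 10 of the 12 lay above 0 and 2 below, where edgeR put 3060 of the 6160 above 0. In a fit with a covariate for each library's share of genes at 0, 3 of the 12 lower genes lay above 0 and 9 below. Their median was -0.52, beside a median of -0.09 and 2787 of the 6160 tested genes of that level above 0. Of the 21 higher genes 6 lay above 0 and 15 below. Their median was -0.11, beside a median of -0.01 and 1719 of the 3582 above 0. The share of genes at 0 ran from 6.59 to 11.6% in LOY and from 9.33 to 21.7% in Control, so this covariate partly goes with the group. Ifit1bl1 and Herc6 had a fold change above 0 on the log2 scale and a lower mean in LOY.

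**Figure D2:**
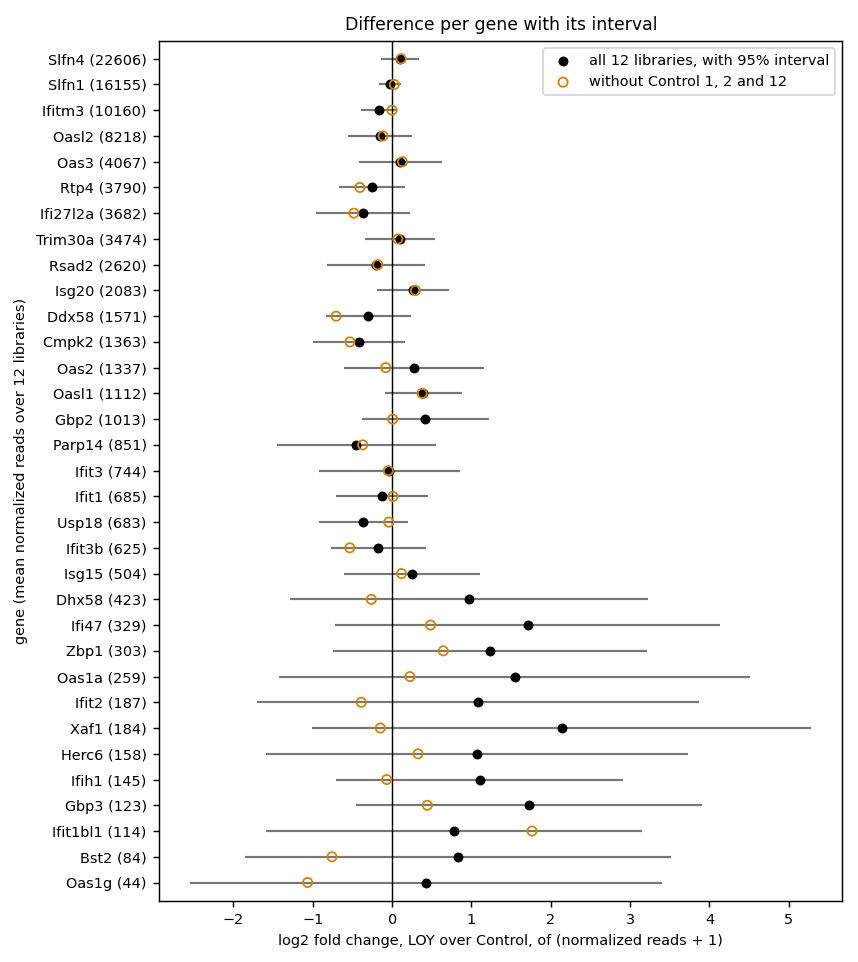
Log2 fold change of each listed gene, LOY minus Control, with its 95% interval, genes ordered by their mean normalized reads, highest at the top; open circles give the estimate without Control 1, 2 and 12. The 12 genes with means under 500 have the widest intervals, and every interval in the plot includes 0.

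How large a difference these libraries could still hold depended on the level. The 95% interval of the fold lay within 2-fold of no difference for 16 of the 33 genes, where it did so for 30.7% of all tested genes. All 16 were among the 21 genes with means of 500 or more (76.2%, beside 72.4% of tested genes of that level), and 0 of the 12 lower genes had such an interval. The outermost limits were 0.365-fold and 2.32-fold for the 21 genes, and 0.172-fold and 39.0-fold for the 12. For the 12 a 2-fold difference was not detectable with these libraries.

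Ranked by normalized reads per kilobase of exon, the most abundant genes were Ifitm3 (14985), Slfn1 (8667), Ifi27l2a (7952) and Slfn4 (5703), and these also included the tightest measurements. Slfn1, a Schlafen gene studied as a regulator of immune cell growth, ran from 15011 (LOY 9) to 16928 (LOY 10) around a median of 16120.4 in LOY libraries, against 15251 (Control 12) to 18669.6 (Control 1) around a median of 15772 in Control libraries. Its log2 fold change was -0.03 ± 0.06 (SE), and the 95% interval of the fold was 0.891 to 1.08. Slfn4, its neighbour on chromosome 11 and known as a myeloid gene, ran from 19699 (LOY 10) to 27499.7 (LOY 15) around a median of 23406 in LOY libraries, against 17745 (Control 2) to 27280 (Control 12) around a median of 21297 in Control libraries, with a log2 fold change of 0.10 ± 0.11 (SE) and a fold interval of 0.907 to 1.27. For both genes the groups lay on top of each other, with the lowest value of Slfn1 in LOY 9 and the highest in Control 1. Without Control 1, 2 and 12 the Slfn1 estimate turned to 0.03, as small as before.

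A group of 3 genes of the set act at membranes or in protein trafficking. Ifitm3, which blocks the fusion of entering viruses, ran from 7935 (LOY 19) to 10783 (LOY 4) around a median of 9585 in LOY libraries, against 9075 (Control 18) to 12864 (Control 2) around a median of 10730.5 in Control libraries. Its log2 fold change was -0.17 ± 0.10 (SE), adjusted p = 0.823, and it was -0.00037 without Control 1, 2 and 12. Rtp4, a transporter-chaperone protein, ran from 2416 (LOY 10) to 4168 (LOY 15) around a median of 3471 in LOY libraries, against 2519 (Control 1) to 5474 (Control 6) around a median of 4351 in Control libraries, with a log2 fold change of -0.26 ± 0.19 (SE). Both had a lower mean in LOY libraries, inside the spread of the groups. Bst2 (tetherin), which holds budding virus at the cell surface, was low and uneven, running from 8.2 (LOY 5) to 173 (LOY 10) around a median of 87.3 in LOY libraries, against 1.08 (Control 1) to 147 (Control 12) around a median of 90.3 in Control libraries. Its log2 fold change was 0.83 ± 1.24 (SE) with all libraries and -0.76 without Control 1, 2 and 12. Ifi27l2a, which encodes a small membrane protein, ran from 1309 (LOY 10) to 4657 (LOY 15) around a median of 3311 in LOY libraries, against 2714 (Control 1) to 5341 (Control 12) around a median of 4213 in Control libraries, with a log2 fold change of -0.37 ± 0.27 (SE).

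**Figure D3:**
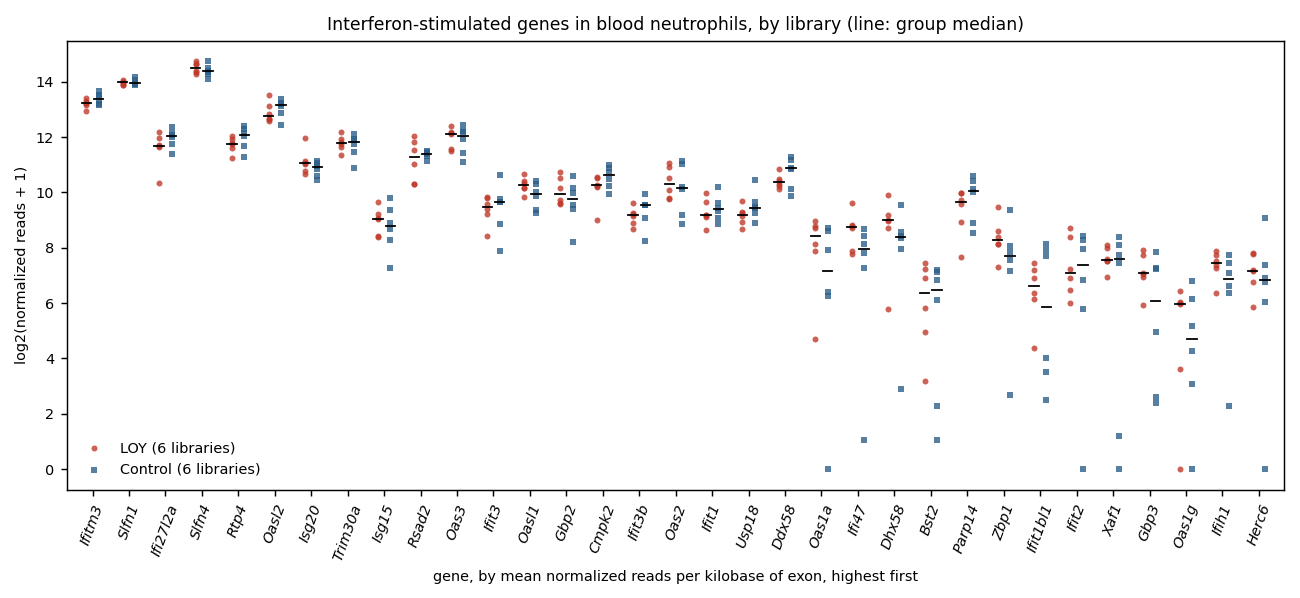
Normalized reads of the listed genes in each library, as log2(normalized reads + 1), with LOY points left of Control points for each gene and a line at each group's median; genes run by level per kilobase. The LOY and Control points overlap for all 33 genes, and the lowest points of the low genes are mostly Control 1 and Control 2.

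The IFIT genes, clustered on chromosome 19, encode a family that includes proteins that bind foreign RNA and hold back its translation. Ifit1, which recognises RNA caps that lack a methyl mark, ran from 401 (LOY 10) to 1008 (LOY 15) around a median of 578 in LOY libraries, against 469 (Control 1) to 1164 (Control 12) around a median of 668 in Control libraries. Its log2 fold change was -0.13 ± 0.27 (SE), adjusted p = 0.932, and the highest library of each group, LOY 15 and Control 12, lay far above its median. Ifit3 ran from 343 (LOY 10) to 914 (LOY 19) around a median of 718 in LOY libraries. In Control libraries Ifit3 ran from 238 (Control 1) to 1576 (Control 2) around a median of 804. The log2 fold change of Ifit3 was -0.03 ± 0.41 (SE). Ifit3b, its near copy, ran from 407 (LOY 5) to 787 (LOY 19) around a median of 583 in LOY libraries, against 305 (Control 1) to 973 (Control 18) around a median of 740.1 in Control libraries, with a log2 fold change of -0.17 ± 0.28 (SE). Ifit3 shares 31.7% of its 100-base exon windows with Ifit3b, and 27.4% of those of Ifit3b occur in Ifit3. A read from a shared window fits both genes. Their sum was 1271 ± 311 in LOY and 1467 ± 570 in Control (SD, n = 6 each), also inside the spread. Per length, Ifit2 and Ifit1bl1 were the lowest of the family. Ifit2 was at 0 in Control 2 and ranged over 62.7 to 423 in LOY libraries and up to 342 in Control libraries. Ifit1bl1 averaged 102 ± 56.3 in LOY and 126 ± 129 in Control.

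ISG15 is a ubiquitin-like protein that HERC6 attaches to targets in mouse cells and USP18 removes again. Isg15 ran from 334 (LOY 10) to 801 (LOY 15) around a median of 532 in LOY libraries, against 154 (Control 1) to 881 (Control 12) around a median of 444 in Control libraries. The log2 fold change was 0.25 ± 0.40 (SE), adjusted p = 0.909, and the groups overlapped over most of their range. Usp18, which also dampens interferon receptor signalling, ran from 409 (LOY 19) to 817 (LOY 4) around a median of 587 in LOY libraries, against 476 (Control 17) to 1398 (Control 12) around a median of 701 in Control libraries, with a log2 fold change of -0.36 ± 0.26 (SE). Its highest value, in Control 12, stood far above the other Control libraries, and without Control 1, 2 and 12 the log2 fold change was -0.04. Herc6 ran from 56.6 (LOY 5) to 226 (LOY 4) around a median of 144 in LOY libraries, against 0 (Control 1) to 539 (Control 12) around a median of 113 in Control libraries. It averaged 149.5 ± 64.6 in LOY and 166 ± 191 in Control, while its fitted log2 fold change was 1.07 ± 1.23 (SE), with a value of 0 in Control 1. Herc6 shares 10.3% of its exon windows with the annotated gene Gm45193.

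The OAS genes all lie on chromosome 5. Those of the Oas1, Oas2 and Oas3 type encode enzymes that detect double-stranded RNA and make oligoadenylates, a signal that leads to RNA decay, and mouse Oasl1 encodes a relative without this activity. Oas3 ran from 2904 (LOY 9) to 5371 (LOY 15) around a median of 4481 in LOY libraries, against 2171 (Control 2) to 5600.3 (Control 12) around a median of 4277 in Control libraries, with a log2 fold change of 0.10 ± 0.24 (SE). Oas2 ran from 873 (LOY 10) to 2132 (LOY 15) around a median of 1281 in LOY libraries, against 463 (Control 1) to 2246 (Control 12) around a median of 1139.6 in Control libraries, and its log2 fold change was 0.28 ± 0.41 (SE). In both genes the highest library was LOY 15 among LOY and Control 12 among Control. Oasl1, which restrains the making of IRF7 protein, had the smallest unadjusted p of the set and ran from 909 (LOY 19) to 1623 (LOY 9) around a median of 1229.9 in LOY libraries, against 611 (Control 12) to 1352 (Control 17) around a median of 982 in Control libraries. Its log2 fold change was 0.39 ± 0.22 (SE), adjusted p = 0.818, and 2 of the 6 LOY libraries lay above all Control libraries. Oasl2, the most abundant OAS gene per length, ran from 6169 (LOY 19) to 11669 (LOY 15) around a median of 6899.8 in LOY libraries, against 5592 (Control 18) to 10655 (Control 6) around a median of 9201 in Control libraries, with a log2 fold change of -0.15 ± 0.19 (SE). Oas1a ran from 25 (LOY 10) to 494 (LOY 5) around a median of 350.5 in LOY libraries, against 0 (Control 2) to 424 (Control 12) around a median of 162 in Control libraries, with a log2 fold change of 1.54 ± 1.37 (SE) and of 0.22 without Control 1, 2 and 12. Oas1g ran from 0 (LOY 10) to 84.8 (LOY 15) around a median of 61.8 in LOY libraries, against 0 (Control 2) to 110.5 (Control 17) around a median of 26.6 in Control libraries, with a log2 fold change of 0.43 ± 1.37 (SE) and of -1.07 without Control 1, 2 and 12. Oas1a and Oas1g share 40.9% and 31.2% of their exon windows with each other, so a read from a shared window fits both genes. Their sum was 364.5 ± 204 in LOY and 242 ± 189 in Control (SD, n = 6 each), with a sum of 0 in Control 2 and of 25.0 in LOY 10.

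A group of 4 genes sense nucleic acids in the cell. Ddx58, which encodes the RNA sensor RIG-I, ran from 1116 (LOY 15) to 1863 (LOY 5) around a median of 1316 in LOY libraries, against 930 (Control 2) to 2517 (Control 6) around a median of 1877 in Control libraries. Its log2 fold change was -0.30 ± 0.25 (SE), adjusted p = 0.85. The -0.71 found without Control 1, 2 and 12 had an unadjusted p of 0.00305 and an adjusted p of 0.778, so it did not pass either. In the fit with a covariate for the share of genes at 0, Ddx58 had a log2 fold change of -0.87. Its unadjusted limma p there was 0.000586 and its adjusted p 0.9999, so it did not pass. It was the 1 gene of the set at an unadjusted limma p under 0.05, where 285 of 9742 tested genes passed. Without Control 1, 2 and 12 Ifit3b also had an unadjusted limma p under 0.05, with a log2 fold change of -0.53 and an adjusted p of 0.922. At that threshold 486 of 9742 tested genes passed without these libraries. Ifih1, which encodes the sensor MDA5 for long double-stranded RNA, ran from 82.2 (LOY 15) to 238 (LOY 4) around a median of 174 in LOY libraries, against 3.84 (Control 2) to 211 (Control 6) around a median of 117 in Control libraries. Dhx58, which encodes LGP2, a modulator of the other two sensors, ran from 53.6 (LOY 19) to 971 (LOY 15) around a median of 507 in LOY libraries, against 6.41 (Control 2) to 747 (Control 6) around a median of 334 in Control libraries. Zbp1, a sensor of Z-form nucleic acids that can start necroptosis, ran from 157 (LOY 5) to 704 (LOY 15) around a median of 308 in LOY libraries, against 5.38 (Control 1) to 651 (Control 12) around a median of 209 in Control libraries. Ifih1, Dhx58 and Zbp1 share a pattern: the Control minimum lay in Control 1 or Control 2, and their log2 fold changes of 1.10, 0.97 and 1.23 were -0.07, -0.26 and 0.65 without Control 1, 2 and 12.

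Rsad2 encodes viperin, an enzyme that makes a chain-terminating nucleotide, and its neighbour on chromosome 12, Cmpk2, encodes a nucleotide kinase. Rsad2 ran from 1267 (LOY 10) to 4224 (LOY 15) around a median of 2537 in LOY libraries, against 2262 (Control 18) to 2922 (Control 17) around a median of 2707 in Control libraries. The LOY libraries spread far more widely than the Control libraries, with a log2 SD of 0.748 against 0.131 in Control, and 3 LOY libraries lay above every Control library and 3 below. Most of the set went the other way. The Control SD was the larger in 14 of the 21 genes with means of 500 or more and in 11 of the 12 lower genes. For the 21 the median log2 SD was 0.357 in LOY and 0.459 in Control, beside 0.324 and 0.465 over all tested genes of that level. For the 12 it was 0.903 and 2.63, beside 0.896 and 2.31. These differences in spread are a description and were not tested. The log2 fold change was -0.20 ± 0.29 (SE). Cmpk2 ran from 515 (LOY 10) to 1494 (LOY 9) around a median of 1224 in LOY libraries, against 997 (Control 2) to 2023 (Control 17) around a median of 1579 in Control libraries, with a log2 fold change of -0.42 ± 0.27 (SE), and LOY 10 was its lowest library, as it was for Rsad2. Isg20, a nuclease that degrades RNA, ran from 1615 (LOY 5) to 3996 (LOY 15) around a median of 2118 in LOY libraries, against 1387 (Control 18) to 2259 (Control 17) around a median of 1924 in Control libraries, with a log2 fold change of 0.26 ± 0.21 (SE).

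The interferon-inducible GTPases Gbp2, Gbp3 and Ifi47 attack the membranes around intracellular microbes. Gbp2 ran from 767 (LOY 19) to 1725 (LOY 10) around a median of 1005 in LOY libraries, against 291 (Control 1) to 1530.1 (Control 18) around a median of 876 in Control libraries, with a log2 fold change of 0.42 ± 0.37 (SE) and of 0.01 without Control 1, 2 and 12. Gbp3 ran from 60.5 (LOY 19) to 239 (LOY 15) around a median of 134 in LOY libraries, against 4.3 (Control 1) to 230.3 (Control 17) around a median of 89.4 in Control libraries, and Ifi47 ran from 218 (LOY 15) to 781 (LOY 9) around a median of 432 in LOY libraries, against 1.08 (Control 1) to 406 (Control 2) around a median of 250.1 in Control libraries. Both were close to 0 in Control 1, and their log2 fold changes were 1.73 ± 1.01 (SE) and 1.71 ± 1.12 (SE). Without Control 1, 2 and 12 they were 0.44 and 0.48. For Ifi47, 4 of the 6 LOY libraries lay above every Control library, and for Gbp3 1 did.

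The remaining genes also overlapped between the groups. Trim30a, which restrains NF-kappaB signalling, ran from 2620 (LOY 19) to 4599.8 (LOY 9) around a median of 3529 in LOY libraries, against 1893 (Control 2) to 4467 (Control 12) around a median of 3628 in Control libraries, with a log2 fold change of 0.10 ± 0.20 (SE). Parp14, an enzyme that adds ADP-ribose to proteins, ran from 201 (LOY 10) to 1022 (LOY 19) around a median of 806 in LOY libraries, against 372 (Control 2) to 1531 (Control 12) around a median of 1074 in Control libraries, with a log2 fold change of -0.45 ± 0.46 (SE), the lowest estimate of the set. Xaf1, which binds an inhibitor of cell death, ran from 122 (LOY 15) to 274 (LOY 4) around a median of 189 in LOY libraries, against 0 (Control 1) to 334 (Control 12) around a median of 194 in Control libraries. It gave the highest estimate of the set, 2.14 ± 1.45 (SE), and -0.15 without Control 1, 2 and 12. Ratios of group means over the set ran from 0.736 (Parp14) to 1.82 (Ifi47), with 18 above 1 and 15 below.

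**Figure D4:**
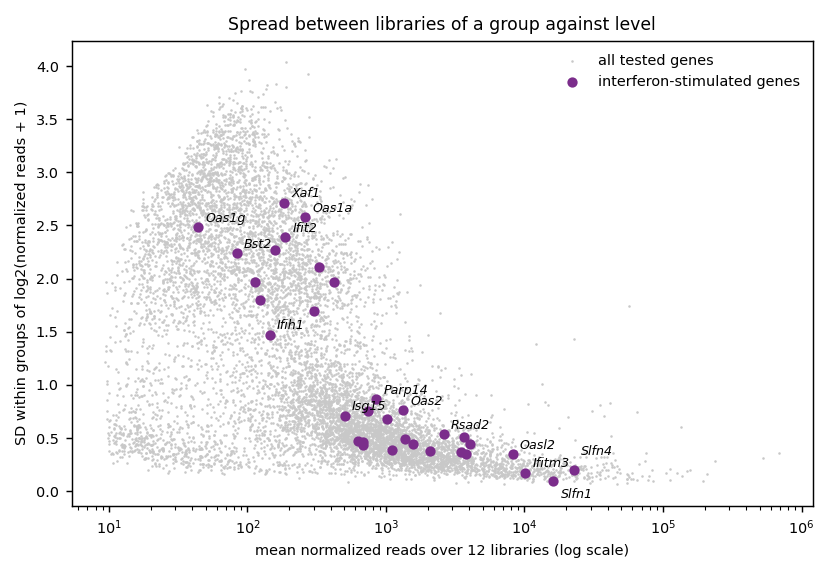
Spread within groups (SD of log2 values) against the mean level in normalized reads on a log axis; coloured points are the interferon-stimulated genes and grey points all tested genes. Slfn1 and Slfn4 have the highest levels of the set and little spread, and the 12 genes with means under 500 have SDs of 1.47 to 2.71 on the log2 scale.

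Many of the genes were highest or lowest in the same library. LOY 15 was the highest LOY library for 14 of 33 genes, where it was so for 16.9% of all tested genes, and LOY 10 was the lowest for 12 of 33, beside 18.8%. Among Control libraries, Control 12 was the highest for 14 of 33, beside 16.6%, and Control 1 was the lowest for 14 of 33, beside 21.4%. Within the 21 genes with means of 500 or more, LOY 15 was highest for 10, beside 17.3% of all tested genes of that level. LOY 10 was lowest for 10 of the 21, beside 18.5%. The median distance of the set from its group mean, in log2 units, was 0.40 in LOY 15 and -0.24 in LOY 10, against 0.43 in Control 12 and -0.24 in Control 1. Over all tested genes these medians were 0.05, 0.03, 0.08 and -0.05. The set also lay off its group mean in Control 17 (0.30), Control 6 (0.24) and Control 2 (-0.22), beside 0.17, 0.18 and -0.08 over all tested genes. The red cell precursor markers, 7 of 8 listed and all 7 with an estimate above 0, stood in LOY 15 at 3.79% of normalized reads, against 0.590 to 1.11% in the other LOY libraries and 0.428 to 0.888% in Control libraries. Their part in the gene values was not tested.

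**Figure D5:**
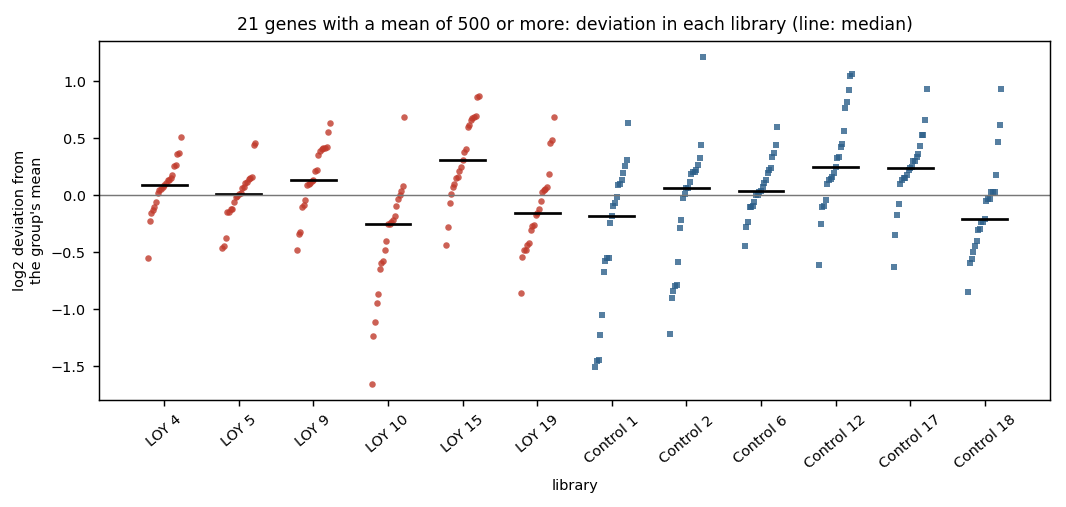
Distance of each of the 21 genes with means of 500 or more from its group mean in each library, in log2 units, LOY libraries left of Control libraries, with a line at the median. The medians are 0.31 in LOY 15 and -0.25 in LOY 10, against 0.25 in Control 12 and -0.18 in Control 1. Those of Control 17 and Control 18 are 0.24 and -0.21.

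The rest of the interferon pathway, from lists of its ligands, receptors, sensors, brakes and other targets, gave 0 called genes as well. None of the 16 interferon genes searched for was in the table. All 12 receptor and JAK-STAT genes were tested, and 0 passed at either threshold, with 3 estimates above 0 and 9 below. The smallest p in that list was that of Ifngr1, a chain of the interferon gamma receptor, at 7402 ± 1124 in LOY and 5813 ± 1762 in Control. Ifnlr1, the interferon lambda receptor chain, averaged 698 ± 329 in LOY and 1027 ± 47.4 in Control. Of 10 tested genes of nucleic acid sensing, 2 had an unadjusted p under 0.05, where 6.04% of all tested genes did. Tbk1, the kinase that activates IRF3, averaged 1103 ± 192 in LOY and 781 ± 312 in Control, and the adaptor Traf3 409.6 ± 151 in LOY and 645 ± 218 in Control. The adjusted p was 0.81 for both.

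Of 11 tested brakes on the pathway 0 passed, with 9 estimates above 0, and the smallest p-value was that of Socs3, an inhibitor of JAK signalling, with a log2 fold change of 0.23 ± 0.21 (SE). Among 53 tested other interferon-induced genes, 34 estimates lay above 0 and 19 below, where 60.9% of all tested genes lay above 0, and 1 had an unadjusted p under 0.05, beside 6.04% of all tested genes. That gene was Tap1, a peptide transporter of antigen presentation, with 2467 ± 465 in LOY and 1603 ± 627 in Control. Its adjusted p was 0.785, and Control 1 and 2 held its lowest values. Cxcl10, an interferon-induced chemokine, came next by p, at 53.6 ± 24.8 in LOY and 39.4 ± 57.2 in Control, and its log2 fold change of 2.60 was -0.03 without Control 1, 2 and 12.

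Markers of other blood cells differed in level. Csf1r, which encodes CD115, the protein the sort selected against, had 9734 to 15221 normalized reads in LOY libraries and 5850.4 to 11687 in Control libraries. Of 10 monocyte markers 7 were listed, and their sum was 0.0805 to 0.124% of normalized reads in LOY and 0.0649 to 0.124% in Control. Of the 4 tested, 2 estimates lay above 0, those of Csf1r (log2 fold change 0.45 ± 0.19 (SE)) and Treml4, and 2 below, those of Ly6c2 (-0.57 ± 0.31 (SE)) and Adgre1. Irf8 reached 228 in LOY 9 and was at 0 in LOY 10 and in every Control library. F13a1 was at 79.5 in LOY 5 and 138 in LOY 15, and at 0 in all other libraries of both groups. Of 10 dendritic cell markers 5 were listed, and they summed to 62.5 to 286 normalized reads in LOY libraries and 80.6 to 754 in Control libraries, with Siglech, Ccr9, Zbtb46, Xcr1 and Cd209a not in the table. All 5 were tested, with 2 estimates above 0, among them Clec9a (3.84 ± 1.14 (SE)), and 3 below, among them Flt3 (-2.37 ± 1.53 (SE)).

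All 7 B cell markers were listed, at 0.0106 to 0.0477% of normalized reads in LOY and 0.0227 to 0.0402% in Control, with 4 of 5 tested estimates above 0. Of 9 T and NK cell markers 4 were listed, at 0.000572 to 0.00155% in LOY and 0.000701 to 0.00283% in Control, and both tested estimates lay below 0. Of 6 platelet markers 5 were listed, at 0.00274 to 0.00714% in LOY and 0.00302 to 0.00882% in Control, with 3 of 4 tested estimates above 0 and that of Pf4 below (-0.91 ± 0.39 (SE)). The 11 neutrophil markers had 4 estimates above 0 and 7 below, with a median of -0.09. Among their granule genes, Ltf averaged 789.8 ± 508 in LOY and 99.3 ± 87.2 in Control, Camp 183 ± 45.1 in LOY and 64.9 ± 84.8 in Control, and Ngp 2148 ± 745 in LOY and 3223 ± 2617 in Control. By limma, Ltf, Camp, Csf1r, Clec9a, Tfrc and Pf4 had an unadjusted p under 0.05, where 6.04% of all tested genes did. No marker passed the adjusted threshold of limma. By edgeR 6 of the 7 red cell precursor markers had an unadjusted p under 0.05, where 2.95% of all tested genes did, and 0 passed the adjusted threshold. DESeq2 called Ltf (adjusted p = 0.0345), and also Irf8 and F13a1, which did not pass the filter of the limma test. The reads of F13a1 came from LOY 5 and LOY 15 alone. The part of these markers in the effector gene values was not tested.

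The authors' deposited table also gives log2 fold changes and p-values, and for all 33 genes these equal the DESeq2 values here within 0.001, so they are not a further comparison. It held 0 of 33 genes at an adjusted p under 0.05, where 0.493% of genes with an adjusted p passed, and 18 fold changes above 0 and 15 below. The median log2 fold change in the authors' deposited table was 0.07, and the smallest unadjusted p there was 0.132, for Ifitm3.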

How the data were processed

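Blood neutrophils of 6 LOY and 6 Control libraries were profiled by SMART-Seq v4 and Nextera XT, per the labels' protocols. Strand is not kept by this kit, so a gene and an antisense gene that overlaps it can share reads. Per the submitters' processing notes, the tools included STAR 2.5.2b, featureCounts and Subread 1.5.2, with Trimmomatic 0.36 and bcl2fastq 2.17, and the builds were GRCm38 and mm10. The authors deposited 1 table with, for every gene, a normalized signal in each library. The values were whole multiples of 1 step per library within 0.02 reads for 100% of values above 0, so each value is a read count divided by a size factor. The authors' log2 fold changes and p-values stand in the same table, per the file headers. Which tool made them the sources used here do not state, though they equal the DESeq2 fit below for all 33 listed members, and genes with a mean under 8.63 normalized reads are not listed.

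The test was limma 3.58.1 (R 4.3.3) on log2(value + 1), with a trended, robust empirical Bayes step, over the 9742 genes that reached a value of 10 in no fewer than 6 libraries, Benjamini-Hochberg adjusted over all of them at a threshold of 0.05. A fold change is LOY minus Control on the log2(value + 1) scale, which understates changes of low genes and overstates those in which single libraries lie near 0. Intervals are 95%. The recovered reads were also tested by DESeq2 1.42.0 and by the quasi-likelihood test of edgeR 4.0.16. Further alternatives were pseudocounts of 0.5 and 5, a minimum mean of 50, no filter, quantile normalization, a covariate for the share of genes at 0, leaving out Control 1, 2 and 12, and leaving out each library. Gene positions came from GENCODE vM21 (GRCm38). The named genes are the members by symbol and, in each pathway list, the genes past the threshold or the 2 with the smallest p. The marker genes given with values were chosen after these were seen, and some genes of the lists are not reported here. The members, lists and tests were chosen with earlier results of these data known.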

Additional observations from a re-analysis of the deposited data

Results flagged for a closer look

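In groups of 6 libraries, 4 of 68 sets of values had 1 library whose gap to its nearest neighbour relative to the group's range exceeded Dixon's 95% critical value. Chance gives about 1 in 20. Cmpk2 was at 515.4 normalized reads in LOY 10, below the other LOY libraries, and Isg20 was at 3996 in LOY 15, above the other LOY libraries. Usp18 was at 1398 and Herc6 at 539.4 in Control 12, both above the other Control libraries.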

How the results depend on the processing

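No effector gene passed the adjusted threshold under any of the 9 other settings or the 12 fits that left out a library, and the smallest adjusted p was 0.635. Of 33 genes, 16 kept the sign of their estimate throughout. The count of all genes past the threshold was 2, and it was 0 with edgeR, quantile normalization, a mean of 50 or more, the covariate, or without Control 1, 2 and 12, 54 with DESeq2, and 0 to 17 over the leave-one-out fits, with 17 without Control 6. Genes of the set at an unadjusted limma p under 0.05 numbered 1 of 33 with the covariate, where 285 of the 9742 tested genes passed. Without Control 1, 2 and 12 they numbered 2 of 33, where 486 of the 9742 passed. Over the leave-one-out fits they numbered 0 to 2, with 2 without Control 17. With the covariate the estimates above 0 numbered 9 and the median was -0.12, and without Control 1, 2 and 12 the median was -0.0428. The sign turned with edgeR for Ifit1bl1 (-0.29) and Herc6 (-0.13), with DESeq2 for Ifit1bl1 (-0.30) and Herc6 (-0.15), and with quantile normalization for Ifit3 (0.01), Oas1g (-0.23) and Bst2 (-0.57). With the covariate it turned for Ifit2 (-0.58), Isg15 (-0.08), Herc6 (-0.0002), Oas1a (-0.93), Oas1g (-2.14), Oas2 (-0.27), Ifih1 (-0.46), Dhx58 (-0.81), Bst2 (-0.81), Gbp3 (-0.07), Slfn1 (0.05), Trim30a (-0.03) and Xaf1 (-0.86). Without Control 1, 2 and 12 it turned for Ifit1 (0.01), Ifit2 (-0.39), Oas1g (-1.07), Oas2 (-0.08), Ifih1 (-0.07), Dhx58 (-0.26), Bst2 (-0.76), Slfn1 (0.03) and Xaf1 (-0.15). Leaving out single libraries, the estimates ran from -0.27 to 0.02 for Ifit1, -0.16 to 1.53 for Ifit2, -0.34 to 0.21 for Ifit3, -0.04 to 0.46 for Isg15, -0.14 to 1.68 for Herc6, -0.42 to 1.36 for Oas1g, -0.06 to 0.22 for Oas3, -0.05 to 0.01 for Slfn1 and -0.06 to 0.19 for Trim30a. The cause was not tested. No paired analysis was possible because the groups share no replicate number. For genes of the set with means under 500 the limma fit says little about the size of a difference, since none of their fold intervals lay within 2-fold of no difference.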
